A study of Rattus norvegicus with 4 samples.

Results

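The genes described here are 33 genes of autophagy, the process by which a cell encloses part of its own contents in a double membrane and delivers it to lysosomes. They were chosen by name to span the steps of the pathway, from its initiating kinase complex to the receptors that select cargo, and are 33 of the 22136 named genes on the array. The choice was made with earlier results of these data known. They are represented by 49 of the 30367 probes other than controls. All 33 had at least 1 probe well above background on all 4 arrays, so none was lost to a filter on dim probes.

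Autophagy starts when the ULK1 kinase complex is activated, and a class III PI3-kinase then makes the lipid PI3P on the membrane from which the vesicle grows. Conjugating enzymes that resemble those of ubiquitin attach small proteins of the ATG8 family (LC3 and GABARAP) to that membrane, and receptors bind both an ATG8 protein and the cargo. Macrophages, which take up and digest particles, use the same machinery to remove damaged organelles and bacteria, and some of its proteins also act on phagosomes.

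Total RNA came from the spleens of male WKAH rats aged 8 to 12 weeks, taken 24 h after an injection of liposomes, which are small lipid vesicles, or of saline. Each group had 2 one-colour Agilent arrays, called saline 1, saline 2, liposome 1 and liposome 2 after the numbers in their titles. In both groups, cells carrying MHC class II had been removed with magnetic beads and cells carrying CD11b/c, an integrin of myeloid cells, had been kept. The study title calls this fraction splenic macrophages. The composition and dose of the liposomes and the number of animals behind each array are not given in the sources used here, so every p-value below reflects the spread among these 4 samples alone, and that spread may be technical.

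Fraction and arrays were checked first. Of the 42877 spots other than controls, 61.3% to 66.3% were well above background on an array and 0 were saturated, and the correlation across genes, which are not independent replicates, was 0.989 for the saline pair and 0.993 for the liposome pair of arrays. The scan software marked 2 quality metrics out of range on saline 1, 1 on liposome 2 and 0 on saline 2 and liposome 1. Levels below are scaled intensities: the processed spot intensity after all arrays were brought to the same 75th percentile. All 10 macrophage markers were measured and well above background on all 4 arrays, with a summed scaled intensity of 194055 and 208605 on the saline arrays and 233602 and 250873 on the liposome arrays. Of the 10 markers 7 were above 0, the median log2 difference was 0.34, and 4 were at an unadjusted p under 0.05. Cd68 stood at 0.76, Mrc1 at 0.66 and Sirpa at 0.57 without passing (limma adjusted p = 0.054, 0.0732 and 0.0947). Adgre1 stood at -0.43 and Csf1r at -0.42, also without passing (limma adjusted p = 0.195 and 0.397). Only Cd163 was called, and it fell by 0.96 ± 0.17 (SE) on the log2 scale (limma adjusted p = 0.0494, n = 2 arrays per group). The median log2 level of the 10 markers, relative to the 75th percentile, was 2.60 and 1.95 on the saline arrays and 2.22 and 2.23 on the liposome arrays. Markers of other cells were present too, and moved. Of the erythroid markers 7 of 10 were measured, 6 of them well above background on every array, and 5 fell, with sums of 88669 and 91183 after saline and 32979 and 31645 after liposomes. Of the neutrophil markers 8 of 10 were measured, 7 of them well above background on every array, and 6 fell, with sums of 239972 and 267420 after saline and 143773 and 154946 after liposomes. The 7 B cell markers, well above background on every array although MHC class II cells had been removed, summed to 56197 and 53376 after saline and to 39241 and 30618 after liposomes. Of these 0 passed in limma, and 6 were at an unadjusted p under 0.05. The 8 T cell markers summed to 15728 and 35026 after saline and 16189 and 28849 after liposomes, and the 7 NK cell markers to 21551 and 66355 against 8940 and 26478, and in both lists the array numbered 2 was the higher in each group. Of the T and NK markers 0 passed in limma, and 1 T cell marker was at an unadjusted p under 0.05. In such bulk samples, fewer cells of a type and less RNA per cell cannot be told apart, and the part of these shifts in the autophagy values below was not tested.

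Among the 33 genes, 3 rose after liposomes and 0 fell. The 3 that rose are all receptors that link cargo or organelles to ATG8 proteins: Optn, Bnip3 and Nbr1. They make up 9.09% of the 33 genes, where 8.89% of all 12858 genes tested were called at a limma adjusted p under 0.05 in either direction, 4.83% as higher and 4.06% as lower. The share called was thus near that of all genes. The genes called over the whole array were 621 higher and 522 lower, a split that became 852 higher and 442 lower when each array was centred on its median, which moved the median difference of all genes from -0.04 to 0.05. At an unadjusted p under 0.05 the counts were 12 of the 33 genes and 4181 of all 12858 genes tested, so such a p was common on these arrays. Without saline 1 or without saline 2, Optn alone of the 33 was called. Without liposome 1 or without liposome 2, no gene of the whole table was called, with smallest adjusted p-values of 0.0558 and 0.0657.

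Most of the machinery lay close to the middle of all genes. The median log2 difference, liposome minus saline, was -0.08 for the 33 genes and -0.04 for all genes tested, with quartiles of -0.29 and 0.21 against -0.28 and 0.23. A difference beyond 0.5 in either direction was seen for 4 of the 33 genes (12.1%) and for 23.5% of all genes. One gene, Optn, was beyond 1. The difference was above 0 for 14 of the 33 genes and for 46.1% of all genes. The levels of the groups did not overlap for 23 of the 33 genes (69.7%), 10 higher and 13 lower after liposomes, beside 65.5% of all genes, 30.4% higher and 35.1% lower, so separation of 2 arrays from 2 was usual on these arrays.

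**Figure D1:**
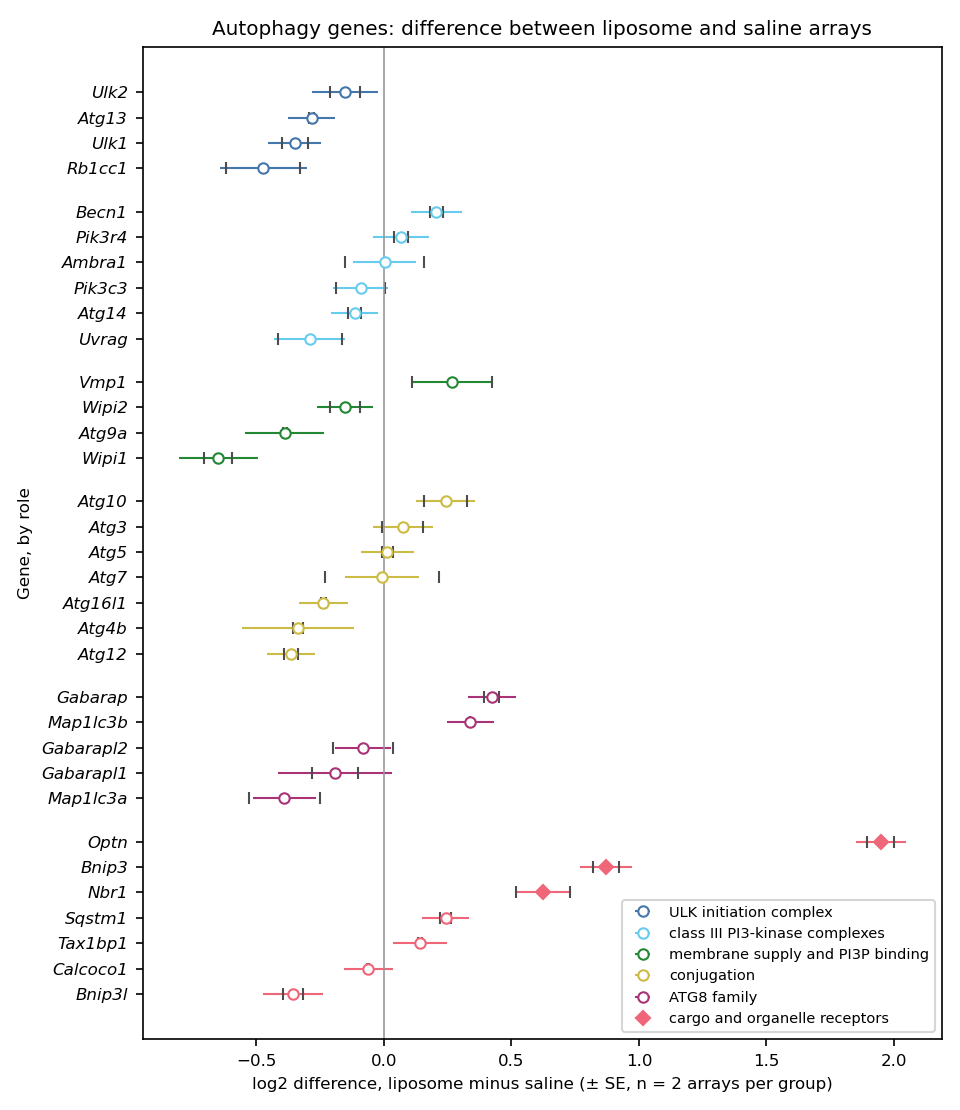
Log2 difference between liposome and saline arrays (x axis, ± SE, n = 2 arrays per group) for each of the 33 autophagy genes (y axis), grouped by role, with small vertical marks for the differences between arrays of the same title number and filled diamonds for genes that passed the test. Optn stands at 1.95, Bnip3 at 0.87 and Nbr1 at 0.62, and the other 30 genes lie between -0.65 and 0.42.

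**Figure D2:**
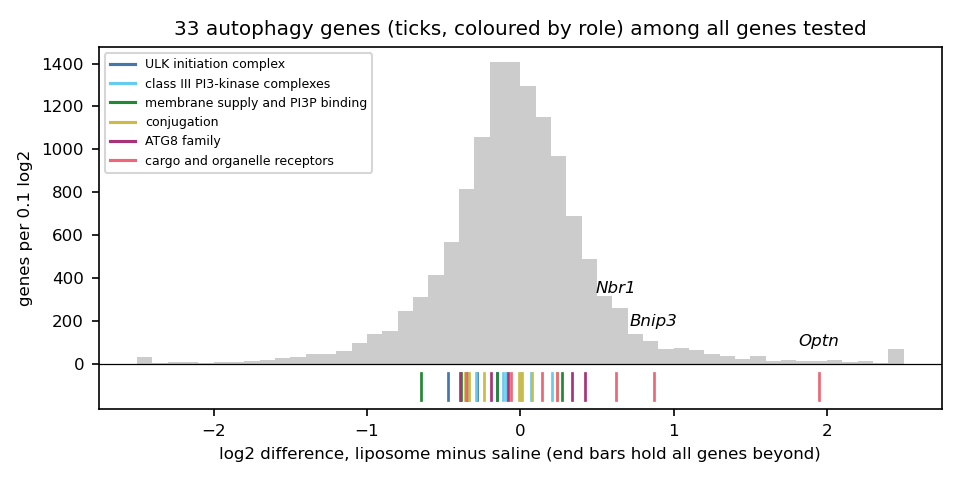
Number of genes per 0.1 log2 unit (y axis) by log2 difference between liposome and saline arrays (x axis) for all 12858 genes tested, with the 33 autophagy genes as ticks under the bars, coloured by role. The ticks crowd around 0, and only Wipi1, Nbr1, Bnip3 and Optn lie more than 0.5 from it.

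Levels were read by 60-base probes printed on the array. The following 4 are shown because Optn and Nbr1 are among the genes that rose, and because the probes of Map1lc3b and Gabarapl1 cover the site at which ATG8 proteins are processed. In the Optn probe the capitals mark the stop codon, so the probe reads the end of the coding sequence, which encodes the ubiquitin-binding zinc finger. The Nbr1 probe lies in the part that encodes its ubiquitin-binding UBA domain and has no capitals. In the Map1lc3b and Gabarapl1 probes the capitals mark the codon of the last glycine, behind which ATG4 proteases cut so that the protein can be joined to lipid. That codon is followed by 5 further codons before the stop in Map1lc3b and by 1 in Gabarapl1.
Optn, rn4 chr17:84346447-84346506: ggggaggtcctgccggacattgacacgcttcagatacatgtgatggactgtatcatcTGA
Nbr1, rn4 chr10:90600481-90600540: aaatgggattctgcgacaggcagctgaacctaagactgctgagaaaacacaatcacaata
Map1lc3b, rn4 chr19:51853509-51853568: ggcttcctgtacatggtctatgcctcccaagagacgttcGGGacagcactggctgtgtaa
Gabarapl1, rn4 chr4:166810026-166810085: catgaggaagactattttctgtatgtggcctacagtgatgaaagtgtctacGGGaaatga

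Cargo and organelle receptors held all 3 genes that rose. Of 7 receptors, 3 rose and 4 did not pass, 5 were above 0, and the median log2 difference was 0.24. Whether receptors differed from the other roles was not tested. The largest difference was that of Optn, which encodes optineurin, a receptor that binds ubiquitin on bacteria and mitochondria and is phosphorylated by the kinase TBK1. Its scaled intensity was 217 on saline 1, 232 on saline 2, 866 on liposome 1 and 863 on liposome 2. Both liposome arrays were far above both saline arrays, and the arrays of a group lay close together. This is a 3.86-fold difference, 1.95 ± 0.10 (SE) on the log2 scale (limma adjusted p = 0.00769, n = 2 arrays per group). Across the alternative settings it ranged from 1.65 to 2.05. The call ended without liposome 1 (adjusted p = 0.0716), without liposome 2 (0.0754) and without a filter on dim probes (0.143, where no gene of the table passed).

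Optn was the only one of the 3 that rose with more than 1 probe. The probe shown above and a second one overlap by 12 bases, and the other one lies 1630 bases past the end of the probe shown on the assembly (rn4 chr17:84348136-84348195). On that distant probe the levels were 128 and 187 after saline and 777 and 760 after liposomes. The overlapping probe read 148 and 177 after saline and 591 and 596 after liposomes. In a fit of all passing probes the log2 differences were 1.95 ± 0.10, 1.87 ± 0.13 and 2.32 ± 0.21 (SE), with limma adjusted p-values of 0.00792, 0.0107 and 0.0167. All 3 probes thus separated the groups in the same direction.

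Bnip3 encodes a mitochondrial outer membrane protein that binds ATG8 proteins, marks mitochondria for removal and is a known target of hypoxia-inducible factor. It had levels of 321 and 316 on the saline arrays and 609 and 558 on the liposome arrays (probe at rn4 chr1:198683030-198683089). Both liposome arrays were above both saline arrays, a 1.83-fold difference of 0.87 ± 0.10 (SE) on the log2 scale (limma adjusted p = 0.0252, n = 2 arrays per group). The gene rests on 1 probe, for which the files also list 2 predicted RefSeq transcripts. Which gene these belong to was not looked up, so whether RNA of another gene is included is not known. Nbr1, a receptor that binds ubiquitin and clusters cargo together with p62, had levels of 847 and 763 after saline and 1212 and 1263 after liposomes. Its groups did not overlap either, and the difference was 1.54-fold, 0.62 ± 0.11 (SE) on the log2 scale (limma adjusted p = 0.0464, n = 2 arrays per group). Neither call held when an array was left out, or without the filter on dim probes (0.224 for Bnip3 and 0.282 for Nbr1). Without saline 1, saline 2, liposome 1 and liposome 2 in turn, the adjusted p of Bnip3 was 0.060, 0.0602, 0.173 and 0.148 and that of Nbr1 was 0.0674, 0.0788, 0.239 and 0.24.

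A smaller difference was measured for p62, a receptor often used as a marker of autophagy. Its gene, Sqstm1, had levels of 3664 and 3558 after saline and 4268 and 4273 after liposomes, a log2 difference of 0.24 ± 0.09 (SE) that did not pass (limma adjusted p = 0.166, n = 2 arrays per group). A second probe, listed under another transcript of the gene, read 2344 and 2807 after saline and 3241 and 3761 after liposomes, a log2 difference of 0.44 ± 0.15 (adjusted p = 0.132 in the fit of all probes). On both probes the liposome arrays were above the saline arrays. Bnip3l encodes NIX, a relative of BNIP3 that clears mitochondria from maturing red blood cells. Its values ran the other way, with 14690 and 13680 after saline and 11802 and 10389 after liposomes, a log2 difference of -0.36 ± 0.12 (SE) that did not pass (limma adjusted p = 0.126, n = 2 arrays per group). Beside it, 5 of 7 measured erythroid markers fell, with a median log2 difference of -1.33, and their part in the Bnip3l value was not tested. Tax1bp1, a ubiquitin-binding receptor related in sequence to NDP52, and Calcoco1, a receptor for endoplasmic reticulum and Golgi, stood at 0.14 and -0.06.

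Within an array the receptors can be set against each other, with no scaling between arrays involved. The log2 difference between Optn and Sqstm1 was greater on the liposome than on the saline arrays by 1.71 as a mean, 1.78 for the arrays numbered 1 and 1.63 for those numbered 2. For Bnip3 against Bnip3l the change was 1.23, with 1.24 and 1.22 by number. For Nbr1 against Sqstm1 it was 0.38, with 0.30 and 0.46. The groups did not overlap in any of these 3 pairs. The pairs were chosen after their values were seen, and groups of 2 arrays often do not overlap here, so these values are a description without a test.

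**Figure D3:**
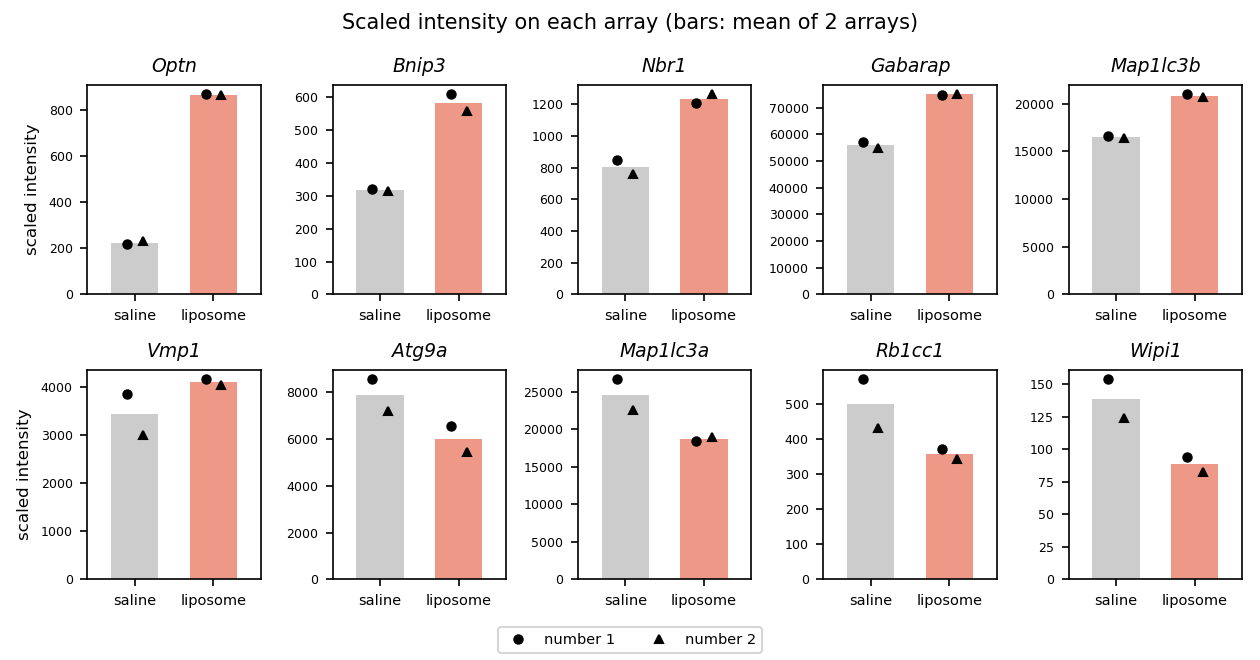
Scaled intensity (y axis, a separate linear scale from 0 for each gene) of 10 autophagy genes on the saline and liposome arrays, with bars for the mean of 2 arrays, circles for arrays numbered 1 and triangles for arrays numbered 2. Optn was at 217 and 232 after saline and at 866 and 863 after liposomes, while in Vmp1, Atg9a, Map1lc3a, Rb1cc1 and Wipi1 saline 2 lay below saline 1 by a visible margin.

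Promoter sequence is shown for Bnip3, the only one of the 3 genes that rose in which a searched motif was found. It was taken from RefSeq on the assembly GRCr8, which held 28 of the 33 genes, and covers 250 bases upstream of the annotated start, written in the direction of transcription. Letters searched on both strands were CACGTG, the E-box form bound by TFEB and its relatives, ACGTG, the core bound by hypoxia-inducible factor, which lies within CACGTG, and TGACNNNGC, the core of the antioxidant element. Capitals mark the match.
Bnip3, GRCr8 chr1:203154963-203155212, minus strand: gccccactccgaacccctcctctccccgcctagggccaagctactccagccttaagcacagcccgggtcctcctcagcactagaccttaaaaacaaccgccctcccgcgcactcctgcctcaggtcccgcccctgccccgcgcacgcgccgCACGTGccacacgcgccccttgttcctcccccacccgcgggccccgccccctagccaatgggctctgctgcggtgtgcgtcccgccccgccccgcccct

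In the Bnip3 promoter CACGTG, and ACGTG within it, was found 99 bases upstream of the start. None of the motifs was found in the same window of Optn or Nbr1, which says only that these letters are not there. The other form of the hypoxia core, GCGTG, was not among the letters searched, and it occurs in the windows of Optn and Bnip3. Of 33469 promoters of this length, 5.59% held CACGTG, 16.6% ACGTG and 10.1% TGACNNNGC. Among the 28 autophagy genes with a promoter in the table, 3 held CACGTG, 8 held ACGTG and 4 held TGACNNNGC. A match describes letters in a window and does not show that a factor binds there.

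The ATG8 family, the proteins attached to the growing membrane, did not move as 1 group. None of its 5 genes passed in limma, and 2 were above 0 and 3 below. At an unadjusted p under 0.05 were 3 of them, beside 4181 of all 12858 genes tested. Gabarap had levels of 57053 and 54693 after saline and 74873 and 74875 after liposomes, a 1.34-fold difference (log2 0.42 ± 0.09 SE, limma adjusted p = 0.0674, n = 2 arrays per group). It passed with normexp background correction (adjusted p = 0.0395) and when limma's prior spread was let vary with intensity (0.0331). Map1lc3b, which encodes the LC3 protein most used to count autophagosomes, had levels of 16572 and 16356 after saline and 20961 and 20681 after liposomes, a log2 difference of 0.34 ± 0.09 (SE, limma adjusted p = 0.0943, n = 2 arrays per group), and of the alternatives run it passed with that intensity trend alone (0.049). On these probes the groups did not overlap for either gene, and the files list 2 predicted RefSeq transcripts for each probe beside the named one. A second, dimmer probe of Map1lc3b read 2684 and 2254 after saline and 2722 and 2673 after liposomes, so its groups overlapped. Its log2 difference was 0.13 ± 0.13 (SE, limma adjusted p = 0.514 in the fit of all probes).

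Map1lc3a, the gene of the related protein LC3A, lay in the other direction. It read 26597 and 22580 after saline and 18414 and 18967 after liposomes, also without overlap, and its log2 difference of -0.39 ± 0.12 (SE) did not pass (limma adjusted p = 0.119, n = 2 arrays per group). Set against Map1lc3a within an array, Gabarap was greater on liposome than on saline arrays by 0.81 on the log2 scale, with 0.92 and 0.70 by array number, and Map1lc3b by 0.73, with 0.87 and 0.59. These pairs too were chosen after their values were seen, and the differences are a description without a test.

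The remaining ATG8 genes were less clear. For Gabarapl1 the brighter probe read 10824 and 15329 after saline and 10083 and 12616 after liposomes, so the groups overlapped, with a log2 difference of -0.19 ± 0.22 (SE) that was 0.06 without saline 2. Its other probe, the one whose sequence is shown, read 3075 and 3126 after saline and 3895 and 3841 after liposomes, without overlap, a log2 difference of 0.32 ± 0.10 (SE, limma adjusted p = 0.111 in the fit of all probes). The gene's direction therefore depends on the probe. The 3 probes of Gabarapl2 gave -0.08, -0.18 and -0.30, none of which passed.

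**Figure D4:**
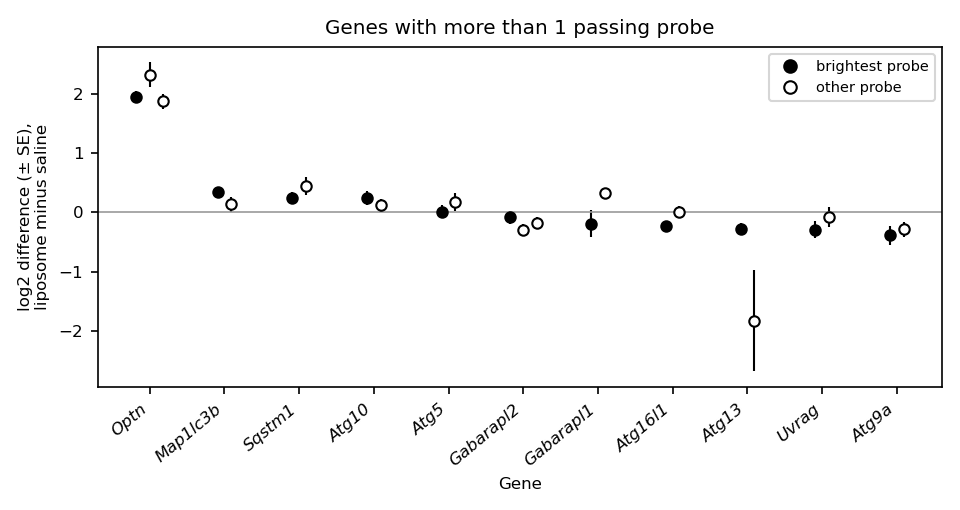
Log2 difference between liposome and saline arrays (y axis, ± SE, n = 2 arrays per group) for every passing probe of the 11 autophagy genes with more than 1 such probe (x axis), filled for the brightest probe and open for the others. The 3 Optn probes lie between 1.87 and 2.32, the probes of Gabarapl1 and Atg16l1 lie on opposite sides of 0, and the open Atg13 probe at -1.83 has the longest error bar.

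Genes of the ULK initiation complex were all below 0, and none of the 4 passed in limma. At an unadjusted p under 0.05 were 3 of them, beside 4181 of all 12858 genes tested. Rb1cc1, whose product FIP200 is the scaffold of the complex, read 570 and 430 after saline and 371 and 343 after liposomes, a log2 difference of -0.47 ± 0.17 (SE, limma adjusted p = 0.149, n = 2 arrays per group). Ulk1, the kinase itself, read 6102 and 5557 after saline and 4621 and 4519 after liposomes, a log2 difference of -0.35 ± 0.10 (adjusted p = 0.107). Atg13, the subunit that links the kinase to the scaffold, read 690 and 701 after saline and 571 and 573 after liposomes, a log2 difference of -0.28 ± 0.09 (adjusted p = 0.126). In these 3 genes both liposome arrays were below both saline arrays, which held for 35.1% of all genes. The second kinase, Ulk2, was dim at 137 to 173 on the 4 arrays, its groups overlapped and its log2 difference was -0.15. The median of the 4 genes was -0.32, beside -0.04 for all genes.

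Membrane supply and PI3P binding were represented by 4 genes, of which none passed in limma and 1 was at an unadjusted p under 0.05. Wipi1, which encodes a protein that binds PI3P on the forming vesicle, had the lowest value of the 33 genes. It read 154 and 124 after saline and 94.3 and 82.3 after liposomes (rn4 chr10:98749014-98749073), so the groups did not overlap. The log2 difference was -0.65 ± 0.15 (SE, limma adjusted p = 0.075, n = 2 arrays per group), and it ranged from -0.80 to -0.46 across the alternative settings. Its relative Wipi2, which recruits the ATG16L1 complex to PI3P, stood at -0.15 ± 0.11. Atg9a, a scramblase carried on the vesicles that seed the membrane, read 8540 and 7189 after saline and 6562 and 5459 after liposomes, a log2 difference of -0.39 ± 0.16 (adjusted p = 0.174). Vmp1, a membrane protein of the endoplasmic reticulum needed for the vesicle to close, was on the other side of 0, with 3852 and 3014 after saline and 4161 and 4048 after liposomes, a log2 difference of 0.27 ± 0.15 (adjusted p = 0.294). In all 4 genes of this role the groups did not overlap, which was usual here, as it held for 65.5% of all genes.

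The class III PI3-kinase genes differed little. None of the 6 passed in limma, 0 were at an unadjusted p under 0.05, and the median log2 difference was -0.04. Becn1, the gene of beclin 1, a core subunit, read 2410 and 2257 after saline and 2733 and 2648 after liposomes, without overlap, a log2 difference of 0.21 ± 0.10 (SE, limma adjusted p = 0.233, n = 2 arrays per group). The catalytic subunit gene Pik3c3 stood at -0.09 and that of its regulatory kinase Pik3r4 at 0.07, with overlapping groups in both. The 2 genes that define alternative forms of the complex were below 0, Atg14 (formation of the vesicle) at -0.11 and Uvrag (maturation and endosomes) at -0.29, neither with overlap. A dimmer second probe of Uvrag stood at -0.08 ± 0.17 (SE), and on it the groups overlapped. Ambra1, a regulator of the complex, had means of 2096 and 2095 with an SD of 229 and 90.3 after saline and liposomes (n = 2 each).

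Conjugation genes were likewise spread around 0, with none of 7 passing in limma, 1 at an unadjusted p under 0.05, and a median of -0.01. Atg12, a ubiquitin-like protein joined to ATG5, read 265 and 276 after saline and 210 on both liposome arrays, a log2 difference of -0.36 ± 0.09 (SE, limma adjusted p = 0.0856, n = 2 arrays per group). Its partner in the same complex, Atg16l1, which also directs LC3 to phagosomes and damaged vacuoles, read 3701 and 3853 after saline and 3163 and 3245 after liposomes, a log2 difference of -0.24 ± 0.10 (adjusted p = 0.176). The groups did not overlap in either, although a dim second probe of Atg16l1 stood at 0.00. Atg10, the enzyme that joins ATG12 to ATG5, was above 0 at 0.24 ± 0.12, also without overlap.

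In the other 4 conjugation genes the groups overlapped. Atg5 stood at 0.01, Atg3, the enzyme that passes LC3 to lipid, at 0.07, and Atg7, the activating enzyme of both branches, at -0.01. Atg4b, the main protease that trims and releases ATG8 proteins, stood at -0.34 ± 0.22 (SE). The sign of Atg5, Atg7, Ambra1 and Calcoco1, none larger than 0.061 in size, turned under another scaling or background correction, and that of the other 29 genes did not. Without saline 2 the values of Atg3 and Pik3r4 were -0.03 and -0.0044 in place of 0.07 for both.

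Beyond these 33 genes, 52 other genes of autophagy and its control were listed, of which 42 were measured. Among them 5 rose, 2 fell and 35 did not pass, with a median log2 difference of 0.00. That is 7 of 42 called, beside 8.89% of all genes. The list was chosen with earlier results of these data known, so its share of calls is a description, and no test was made of it. Without saline 1 or without saline 2 the count was 3, and without liposome 1 or liposome 2 it was 0.

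Atg4c, one of the proteases that trim ATG8 proteins, was dim but rose. It read 59.7 and 59.1 after saline and 150 and 140 after liposomes, a 2.44-fold difference (log2 1.29 ± 0.10 SE, limma adjusted p = 0.0133, n = 2 arrays per group). With normexp background its log2 difference was 0.67 (adjusted p = 0.0188), below those of Dram2 and Ncoa4 at 1.17 and 1.09 in that setting. Dram2, a lysosomal membrane protein, read 704 and 666 after saline and 1595 and 1659 after liposomes, a 2.38-fold difference (log2 1.25 ± 0.10 SE, adjusted p = 0.0137). Ncoa4, the receptor that delivers the iron store ferritin to autophagosomes, read 346 and 310 after saline and 767 and 778 after liposomes, a 2.36-fold difference (log2 1.24 ± 0.11 SE, adjusted p = 0.016). In each of these, the liposome arrays lay well apart from the saline arrays. Tecpr1, which takes part in fusion of the vesicle with lysosomes, read 6086 and 6437 after saline and 10012 and 9887 after liposomes, a 1.59-fold difference (log2 0.67 ± 0.10 SE, adjusted p = 0.0357).

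A further 3 genes that passed encode receptors for the endoplasmic reticulum, a grouping made after their values were seen. Tex264 rose from 11738 and 12718 to 19164 and 18719, a 1.55-fold difference (log2 0.63 ± 0.10 SE, limma adjusted p = 0.042, n = 2 arrays per group). Retreg1, also called FAM134B, fell from 2568 and 2559 to 1473 and 1554, a log2 difference of -0.76 ± 0.10 (adjusted p = 0.0287). Ccpg1 fell from 5083 and 5130 to 3022 and 3062, a log2 difference of -0.75 ± 0.09 (adjusted p = 0.0278). Sec62 and Calcoco1, which have such a role too, stood at -0.31 and -0.06 and did not pass (adjusted p = 0.119 and 0.686). Of the 7 calls in this list, those of Atg4c, Dram2 and Ncoa4 held without saline 1 and without saline 2, while those of Tecpr1, Tex264, Retreg1 and Ccpg1 ended in either case. Without liposome 1 or without liposome 2, all 7 ended. The largest differences that did not pass were 0.65 ± 0.16 for Nfe2l2, which encodes the stress regulator NRF2 (adjusted p = 0.0754), and -0.59 ± 0.14 for the protease gene Atg4d (adjusted p = 0.0694). Of the listed factors that control transcription of autophagy and lysosome genes, Tfeb, Mitf and Foxo3 stood at 0.19, 0.56 and -0.07 without passing. Tfe3 and Foxo1 were not measured. Tbk1, the kinase of optineurin, stood at 0.31, also without passing.

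**Figure D5:**
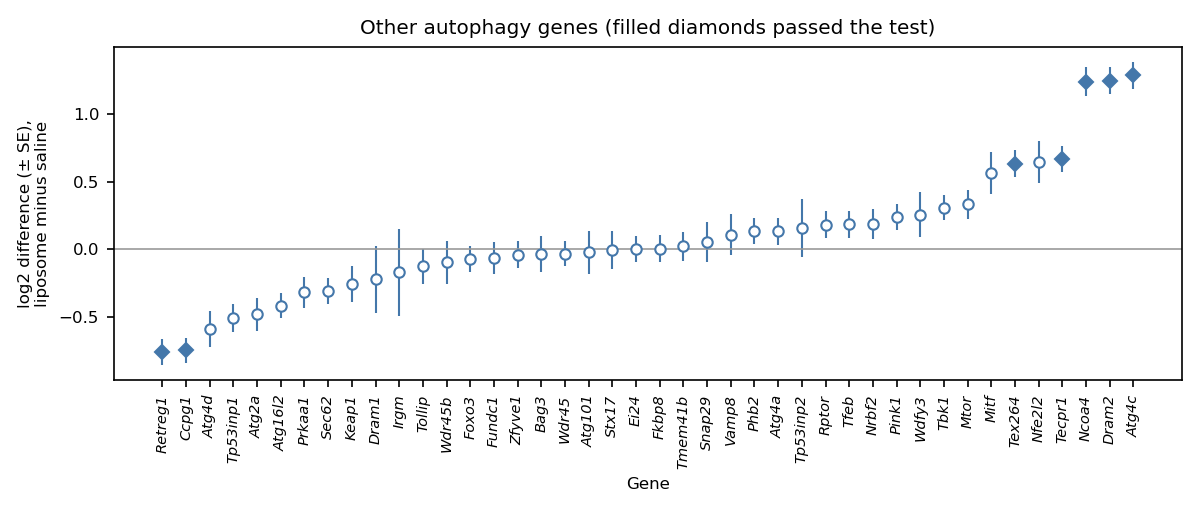
Log2 difference between liposome and saline arrays (y axis, ± SE, n = 2 arrays per group) for the 42 measured genes of the list of other autophagy genes (x axis, in order of the difference), with filled diamonds for those that passed the test. Ncoa4, Dram2 and Atg4c stand above 1.2 at 1.24, 1.25 and 1.29, and Retreg1 and Ccpg1 are lowest at -0.76 and -0.75.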

How the data were processed

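RNA (0.2 ug per array) was labelled with Cy3 and read, per the submitters' processing notes, with Agilent Feature Extraction 10.7.3.1. The deposited values are linear spot intensities, from which, per the file headers, each array's background and spatial trend had been subtracted, with no scaling across arrays. The headers also record a multiplicative detrending and the use of surrogates, values that stand in for spots near background. All 4 arrays shared 1 slide and 1 scan. Controls and outlier spots were dropped, replicate spots averaged, and log2 intensities centred on each array's 75th percentile. The deposited mean and local background intensities served 1 alternative. A probe needed to be well above background on both saline or both liposome arrays, and the brightest passing probe stood for a gene. Symbols came from the reference gene table for 18006 of 30367 probes and from the files for 8186, and 4175 had none. Probe positions are the files' own, on rn4. Exons, introns and UTRs of rn4 were not used here.

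Tests used limma 3.58.1 (R 4.3.3, with data.table at version 1.17.8) on 12858 genes, with Benjamini-Hochberg adjustment over all of them and a threshold of 0.05. A fit of all passing named probes gave values per probe. With 2 arrays a group, exact permutation can reach no p under 0.333 and was left aside. The pipeline was tested on simulated data with independent genes, where a small share of genes changed and spreads were shuffled among genes. The rates on the deposited arrays may therefore differ. In the simulation the pipeline found 5.72% of the changes of 0.5 log2, 54.7% of those of 1 and 83.3% of those of 2, and 4.22% of its calls were false. A gene that did not pass is therefore not shown to be unchanged. The arrays' number limits the precision. The 33 genes and all lists were chosen with earlier results of these data known. Full values are given for autophagy genes that passed or whose groups lay at least 0.5 log2 apart without overlap, and for other genes that illustrate a role, the latter chosen after their values were seen. Alternatives covered scaling (median, quantile), background (normexp, offset 50), probe filter, probe choice, gene naming, the title number as a block, each array left out and an intensity trend.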

Additional observations from a re-analysis of the deposited data

How the results depend on the processing

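The median log2 difference of the 33 genes stayed between -0.09 and 0.00 under every alternative run. None of the autophagy genes that passed the test, among the 33 or in the other list, changed direction. Of the 33 genes 26 kept their direction under every alternative, the 7 exceptions being Ambra1, Atg3, Atg5, Atg7, Calcoco1, Gabarapl1 and Pik3r4. Counts moved more. Genes called over the table, 1143 as reported, were 1718 with normexp background, 1962 with the intensity trend (chosen after seeing the data) and 0 of 21971 with no filter on dim probes, where 3005 were at an unadjusted p under 0.05. With the title number as a replicate block they were 1816, and 1 autophagy gene of the 33 was called lower, Wipi1 (adjusted p = 0.0396). The titles end in exp1 or exp2 in both groups. The labels do not say that these numbers pair the arrays, and there are only 2 pairs. Deviations of same-numbered arrays correlated at 0.355 over all genes and 0.576 over the 33. Autophagy genes called higher, 3 as reported, were 5 with the trend and 0 without the filter. Of the other autophagy genes, 7 as reported, 11 were called with normexp, 12 with the trend and 0 without the filter. Leaving out each array in turn gave 0 to 499 genes called, 0 to 1 of the 33 called higher and 0 to 3 of the other autophagy genes. The smallest adjusted p in the whole table without the filter was 0.143. The cause of these moves was not tested.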

Other observations

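The dimmer Atg13 probe read 71.8 on saline 1, 404 on saline 2, 50.05 on liposome 1 and 46.05 on liposome 2. Saline 2 alone stood far above the other arrays, and the brighter probe of the gene, at 690, 701, 571 and 573, did not show this. Its log2 difference of -1.83 ± 0.86 (SE) did not pass (limma adjusted p = 0.226 in the fit of all probes, n = 2 arrays per group).

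Atg3 and Atg14 were each printed as 10 spots of 1 probe on every array, which gives the spread within an array. On the log2 scale the SD over the 10 spots was 0.031 to 0.042 for Atg3 and 0.060 to 0.079 for Atg14. The log2 differences between groups, 0.07 for Atg3 and -0.11 for Atg14, had SE of 0.12 and 0.09.

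Of the 11 autophagy genes with more than 1 passing probe, 9 had all probes on the same side of 0 and 2, Atg16l1 and Gabarapl1, did not. The median distance between the highest and lowest probe of a gene was 0.21 on the log2 scale. A further 3 probes, of Ambra1, Atg14 and Tax1bp1, were too dim to be used.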
